A study of Mus musculus with 4 samples.

Results

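Of the 25446 H3K4me3 peaks in the authors' replicated list, called on both pools of mouse cerebral cortex, 2122 (8.34%) lay inside introns and far from annotated protein-coding starts. Starts of other transcripts could be nearer, the nearest at 1009 bases. They were the peaks with no base in any exon, at least 1 base in a gene body of any biotype, no base within 1000 bases of any transcript start, and a distance of over 5000 bases from the nearest start of a protein-coding transcript, by GENCODE release M21 on the mm10 build. They covered 1230402 bases, 3.28% of all peak bases. The choice used position and not height. A wide peak reaches an exon or a start window more easily than a narrow one, so the widths below are in part set by the choice.

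The tissue was the left cerebral cortex, taken from B6CASTF1/J females, first-generation hybrids of a C57BL/6J and a CAST/EiJ parent, at 2 months of age. Chromatin was immunoprecipitated with an antibody against H3K4me3, and 4 libraries were sequenced, 2 technical replicates from each of 2 pools of 4 biosamples. Pool I was biological replicate 2 and pool J biological replicate 1, there was no treatment or genotype contrast, and all libraries carried 1 donor record, so the spread between pools may be partly technical. Each pool had 1 deposited peak list (24508 peaks in pool I, 21573 in pool J) and the reads of both had another (26286 peaks). Read numbers were not given in the sources used here, so the depth behind the lists is unknown.

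H3K4me3 is the trimethylated form of lysine 4 on histone H3. It is laid down by the SET1 and MLL family of methyltransferases, which are drawn to unmethylated CpG dinucleotides and to initiating RNA polymerase II, and it forms its highest and widest domains over the first nucleosomes of active genes. Away from annotated promoters the mark is found at starts that an annotation lacks, at CpG islands inside genes, and at a low level at active enhancers, where the monomethylated form prevails. Brain genes are long and many use internal promoters.

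Sequences of 300 bases centred on the summit of 6 of these peaks are given on the plus strand of mm10 with every CpG dinucleotide in capitals, 4 of them CpG-rich by the limits given below and 2 not. They are the highest peak of all (in Gm12446, chr4:46304922-46305221), 1 in the insulin receptor gene Insr (chr8:3221245-3221544), 1 in the kainate receptor subunit gene Grik4 (chr9:42897432-42897731), 1 in the neuronal splicing regulator gene Rbfox1 (chr16:7039808-7040107), and the 2 that are not CpG-rich, in the synaptic scaffold gene Dlg1 (chr16:31696319-31696618) and the phosphodiesterase gene Pde4b (chr4:102511280-102511579).
Gm12446: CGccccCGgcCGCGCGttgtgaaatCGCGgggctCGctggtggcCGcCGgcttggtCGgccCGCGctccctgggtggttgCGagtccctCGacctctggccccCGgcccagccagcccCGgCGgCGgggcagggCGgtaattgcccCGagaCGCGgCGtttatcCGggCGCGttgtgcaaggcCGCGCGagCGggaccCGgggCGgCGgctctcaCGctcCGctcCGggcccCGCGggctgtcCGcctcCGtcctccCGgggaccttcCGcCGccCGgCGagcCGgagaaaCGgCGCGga
Insr: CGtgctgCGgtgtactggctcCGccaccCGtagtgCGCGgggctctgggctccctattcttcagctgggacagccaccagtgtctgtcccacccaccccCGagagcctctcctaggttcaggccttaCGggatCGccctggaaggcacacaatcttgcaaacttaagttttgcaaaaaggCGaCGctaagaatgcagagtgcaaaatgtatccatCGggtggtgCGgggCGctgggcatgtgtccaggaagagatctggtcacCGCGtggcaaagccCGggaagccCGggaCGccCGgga
Grik4: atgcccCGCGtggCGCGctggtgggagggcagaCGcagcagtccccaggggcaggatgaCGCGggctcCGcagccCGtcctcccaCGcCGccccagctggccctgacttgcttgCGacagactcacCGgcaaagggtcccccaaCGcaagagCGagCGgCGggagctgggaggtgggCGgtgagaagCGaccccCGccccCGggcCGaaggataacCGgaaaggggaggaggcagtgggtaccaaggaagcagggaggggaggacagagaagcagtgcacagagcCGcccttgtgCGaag
Rbfox1: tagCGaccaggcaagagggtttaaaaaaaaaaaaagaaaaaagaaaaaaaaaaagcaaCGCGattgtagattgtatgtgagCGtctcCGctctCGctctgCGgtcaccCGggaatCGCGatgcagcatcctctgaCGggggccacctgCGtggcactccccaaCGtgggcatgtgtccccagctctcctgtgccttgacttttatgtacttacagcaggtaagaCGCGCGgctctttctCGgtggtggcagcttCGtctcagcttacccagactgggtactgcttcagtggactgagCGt
Dlg1: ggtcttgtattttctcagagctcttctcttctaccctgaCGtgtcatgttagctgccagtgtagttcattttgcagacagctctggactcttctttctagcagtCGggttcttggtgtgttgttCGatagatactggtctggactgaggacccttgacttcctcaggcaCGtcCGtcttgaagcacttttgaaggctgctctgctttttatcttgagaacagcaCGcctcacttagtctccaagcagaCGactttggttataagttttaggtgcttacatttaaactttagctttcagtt
Pde4b: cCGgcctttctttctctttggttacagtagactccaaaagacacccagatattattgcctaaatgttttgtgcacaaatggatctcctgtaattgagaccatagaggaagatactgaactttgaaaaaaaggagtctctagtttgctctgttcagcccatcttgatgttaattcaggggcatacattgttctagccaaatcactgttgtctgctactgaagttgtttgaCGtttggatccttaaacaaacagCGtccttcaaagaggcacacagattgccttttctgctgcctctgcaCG
The 300 bases held 50 CpGs in Gm12446, 20 in Insr, 25 in Grik4, 19 in Rbfox1, 7 in Dlg1 and 4 in Pde4b. The observed-to-expected CpG ratio was 0.461 in Dlg1 and 0.304 in Pde4b, against a median of 0.433 and a first quartile of 0.302 over all far intronic peaks, so none of the 6 lies below that first quartile. The letters are those of the reference, and the CAST/EiJ alleles were not read.

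The far intronic peaks were low, and narrow within what their choice allows. Their median width was 463 bases (quartiles 316 and 695, range 188 to 8572), against 1683.5 bases for the 17464 peaks in start windows and 512 bases for the 5860 other peaks outside those windows. Enrichment is the authors' own value for each peak, a fold taken here as over a control, and ranks peaks within a list. Its median was 3.64 (quartiles 2.93 and 4.99, range 1.80 to 27.7), against 17.5 in start windows, 4.46 for 3270 intergenic peaks, 4.05 for 1128 exonic peaks and 3.34 for 1462 intronic peaks nearer to a coding start. The median far intronic peak stood at percentile 19.3 of the replicated list and the highest at percentile 91.9. A −log10 q of at least 10 was reached by 641 of them (30.2%), against 71.4% of all replicated peaks. In the deposited list 74 of the 2122 had a q above 0.05. So had 361 of all 25446 replicated peaks and 188 of the 5860 other peaks outside start windows. In bulk tissue, the mark in few cells and a low level of it in many cells cannot be told apart.

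**Figure D1:**
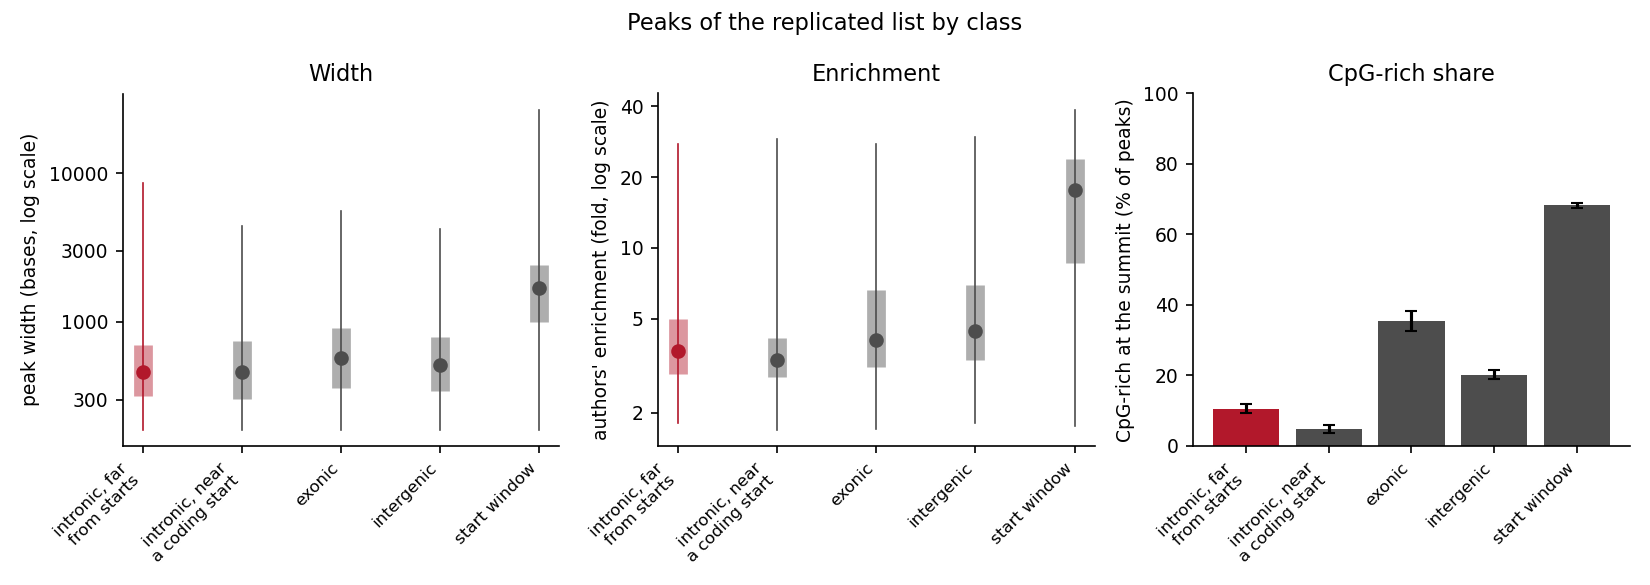
Width in bases, the authors' enrichment (fold) and the share of CpG-rich peaks for 5 classes of peaks of the replicated list. Points are medians, thick bars quartiles and thin lines the full range, and error bars on the shares are 95% Wilson intervals; the far intronic peaks (red) have a median width of 463 bases, a median enrichment of 3.64 and a CpG-rich share of 10.6%, against 1683.5 bases, 17.5 and 68.3% in start windows.

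The lists of the single pools held fewer of these peaks than of all peaks. By overlap of at least 1 base, 1586 of 2122 (74.7%, 95% Wilson interval 72.8 to 76.5) had a peak in the pool I list, against 90.7% of all replicated peaks. In the pool J list 1145 had one (54.0%, interval 51.8 to 56.1), against 82.5% of all replicated peaks. The pooled-reads list held 1911 (90.1%), against 96.7%. The intervals cover counting error over peaks only. Both pools had 1039 of the peaks (49.0%), pool I alone 547 (25.8%), pool J alone 106, and neither list 430 (20.3%). The 430 had a median enrichment of 2.81 and a median width of 264 bases. Of all replicated peaks, 80.1% were in both lists, 10.6% in pool I alone and 6.88% in neither. Of the 5860 other peaks outside start windows, which came closer, 57.4% were in both, 22.9% in pool I alone and 14.9% in neither. Applied to each list by itself, the position rule gave 1930 peaks in pool I (7.87% of that list) and 1234 in pool J (5.72%), or 1582 ± 492 (SD, n = 2 pools). With 1 list per pool no test between pools was made.

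Presence in a pool list followed enrichment closely. The replicated list was derived from the same pools, so its enrichment and presence in a pool list are not independent. Among peaks up to 3-fold, 40.2% were found in pool I and 18.0% in pool J. Between 3- and 5-fold the shares were 80.6% and 50.9%, and between 5- and 10-fold they were 99.7% and 97.2%, in the same order of pools. All 131 peaks above 10-fold were found in both pools. Start-window peaks of the same enrichment gave 48.9% and 22.3% up to 3-fold, and 82.4% and 61.4% between 3- and 5-fold, again for pool I and then pool J. The 3 highest far intronic peaks found in pool I alone lay in Zdhhc19 (6.20 in the replicated list, 7.41 in pool I), in Gli2, a transcription factor of Hedgehog signalling (5.79 and 7.03), and in the chromatin remodeller gene Chd9 (5.58 and 5.89). The 3 highest found in pool J alone lay in Gm26848 (5.48 in the replicated list, 5.77 in pool J), in the arrestin gene Arrb1 (4.46 and 5.36) and in Gm13832 (4.42 and 5.57).

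**Figure D2:**
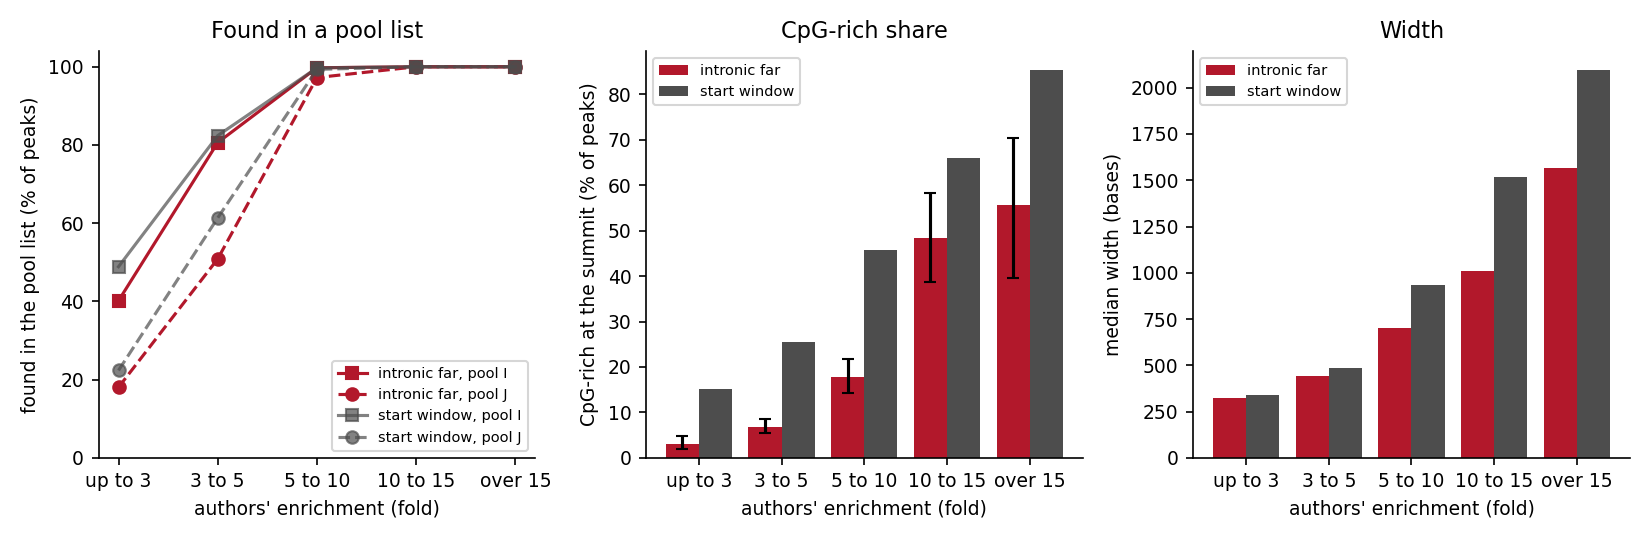
Far intronic peaks (red) and start-window peaks (grey) by bins of the authors' enrichment: share found in the list of pool I or pool J, share that is CpG-rich (error bars, 95% Wilson intervals, drawn for the far intronic peaks), and median width in bases. The share found in pool J goes from 18.0% up to 3-fold to 97.2% between 5- and 10-fold, and the CpG-rich share from 3.04% to 55.6% across the bins.

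Where both pools had the peak, height and width were alike in order. The overlapping peak had a median enrichment of 5.58 in pool I and 4.74 in pool J, each on the scale of its own list, and a median width of 712 bases in pool I and 616 bases in pool J. The median of the width ratio, pool I over pool J, was 1.12, and 78.9% of the 1039 peaks were within 1.5-fold, against a median ratio of 1.06 and 90.4% for 15976 start-window peaks. Across those 1039 peaks Spearman's rho between pools was 0.760 for enrichment and 0.734 for width, against 0.892 and 0.891 in start windows; peaks of 1 genome share their sequence, so these describe the lists. A pool peak can be wider than the replicated one and run past it: 184 of the 1586 overlapping peaks in pool I and 36 of the 1145 in pool J were over 1.5 times as wide. By position, 1532 of the overlapping peaks in pool I (96.6%) and 1137 in pool J (99.3%) were themselves far intronic peaks, and 21 and 4 of them reached a start window.

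**Figure D3:**
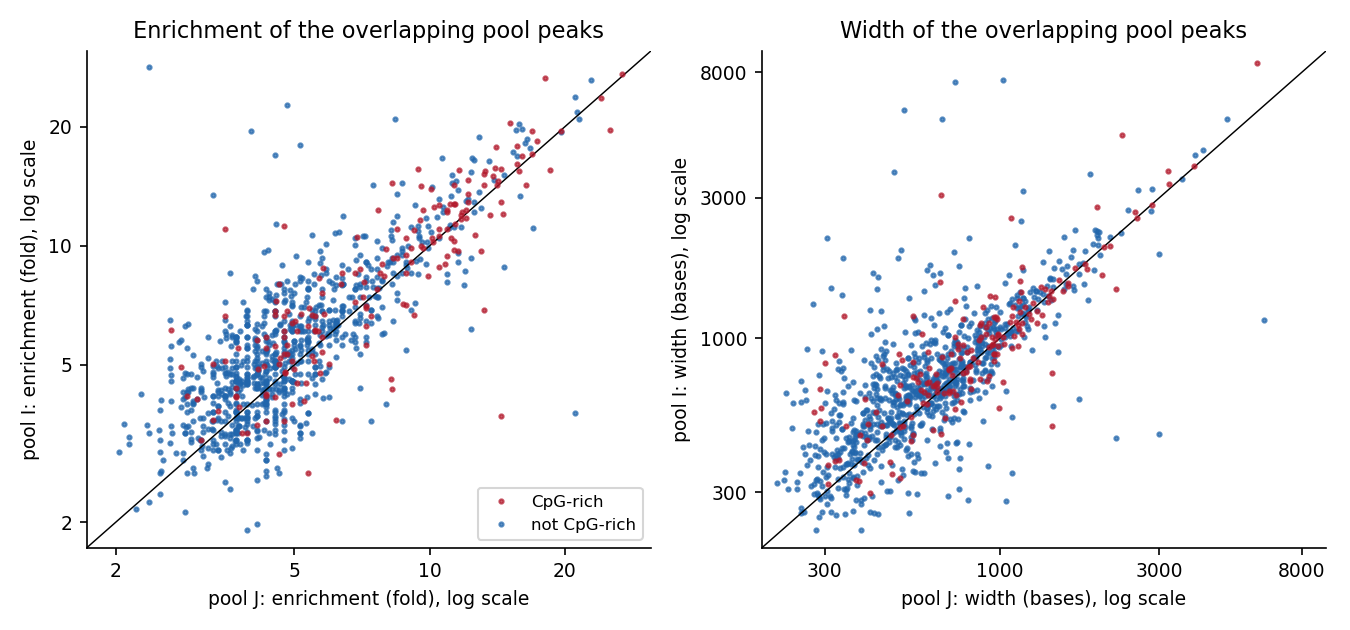
Enrichment (fold) and width (bases) of the overlapping peak in pool I (vertical axis) and pool J (horizontal axis) for 1039 far intronic peaks found in both lists, on log scales, with CpG-rich peaks in red and the others in blue. The line marks equal values; the median width ratio, pool I over pool J, is 1.12, and the points far above the line are pool I peaks that extend beyond the replicated peak.

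CpG content set a minority of these peaks apart. A summit was called CpG-rich when its 300 bases had a GC content of at least 50% and an observed-to-expected CpG ratio of at least 0.6. This held for 224 far intronic peaks (10.6%, interval 9.32 to 11.9), against 52.2% of all replicated peaks, 68.3% of start-window peaks, 35.5% of exonic, 20.2% of intergenic and 4.65% of the intronic peaks nearer to a coding start. The share depends on the limits: it was 4.29% over 1000 bases, 5.42% with a GC content of at least 55% and a ratio of at least 0.65, and 24.0% where −log10 q was 10 or more. In 300-base tiles of the 910.271 megabases of intron sequence where such a peak could lie, 0.248% were CpG-rich. The median CpG ratio was 0.433 under the peaks and 0.152 in the tiles, and 0.566% of the peaks had no CpG at all, against 17.7% of tiles. Median GC content was 49.3%, against 42% in the tiles. Repeats, as masked in the genome sequence, took on average 9.23% of the bases under the peaks and 30.9% of the tiles.

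The CpG-rich peaks were wider and higher than the other far intronic peaks. Their median width was 709 bases and median enrichment 5.89, against 446 bases and 3.47 for the other 1898. In pool I 92.9% of them were found and in pool J 82.6%, against 72.6% and 50.6% of the others in the same order of pools. The CpG-rich share was 3.04% up to 3-fold, 6.78% between 3- and 5-fold, 17.8% between 5- and 10-fold, 48.4% between 10- and 15-fold and 55.6% above 15-fold. Start-window peaks in the same bins had 15.1%, 25.4%, 45.8%, 66.0% and 85.3%. Median width in these bins was 324, 441.5, 703, 1008 and 1568 bases, against 342, 486, 934, 1520 and 2095 bases in start windows. Across the 2122 peaks Spearman's rho of enrichment was 0.583 with width, 0.330 with the CpG ratio and 0.05 with distance from the nearest coding start.

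Height varied little with distance past the limit. The median distance to a coding start was 31322.5 bases and the largest 1276236, in Gm45341. Of the peaks, 399 lay within 10 kb of a coding start, 395 between 10 and 20 kb, 557 between 20 and 50 kb, 353 between 50 and 100 kb, 254 between 100 and 200 kb and 164 beyond 200 kb. The median enrichment of these 6 groups ran from 3.44 to 3.74 and the share found in pool J from 47.6% to 58.5%. CpG-rich summits made up 14.0% between 20 and 50 kb and 2.44% beyond 200 kb. The 3 peaks just inside the limit lay 5012, 5015 and 5037 bases from a coding start, in Frmd6 (2.58-fold), Gpbp1 (3.74) and Foxn3 (6.71). Those just outside lay 4995 bases away in Kctd1 (3.13) and Pde2a (5.69) and 4985 bases away in Creg2 (3.23).

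The highest peaks stood on both sides of the CpG limits. In Gm12446, an antisense RNA gene, the peak at chr4:46304335-46305901 (1567 bases) had an enrichment of 27.7, with 27.2 in pool I and 26.8 in pool J. Its CpG ratio was 1.09, and a start predicted by RefSeq for Gm12447, on the opposite strand to Gm12446, lay 192 bases away. In 3110082I17Rik the peak at chr5:139370774-139372565 had an enrichment of 24.8 (23.6 in pool I, 24.1 in pool J), a CpG ratio of 0.825, and the annotated start of the microRNA gene Mir339 at 1029 bases, just beyond the start window. In Macrod1, a gene for an ADP-ribosyl hydrolase, the peak at chr19:7163755-7166586 had 21.2 (19.7 in pool I, 25.2 in pool J). Flrt1, a membrane protein gene of neurons on the opposite strand within Macrod1, has a start predicted by RefSeq inside that peak. All 3 were CpG-rich, as was the peak in Insr at chr8:3220391-3221902 (19.1, with 19.5 in pool I and 16.9 in pool J), which lay 58.2 kb into the gene and 27674 bases from the nearest annotated start of any kind.

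Other peaks of like height were not CpG-rich, and the 5 highest of them had CpG ratios of 0.517 to 0.596, under the limit of 0.6. Peaks somewhat lower spread further. The ratio was 0.287 in Cyth1 (18.1-fold), while Ppfia2 (18.2-fold) had 0.769 and missed the GC limit at 43.7%. The second highest, in the long noncoding RNA gene AC165153.1 at chr17:88255551-88257492, had an enrichment of 25.3 (26.2 in pool I, 22.9 in pool J) and lay 183 kb from any coding start and 47886 bases from any start. Its CpG ratio was 0.526 at a GC content of 63.7%. Gm12979 held 1 of 23.0 (23.7 in pool I, 21.0 in pool J), and Gm15738 and Gm17655 held peaks of 21.2 and 19.6. In Epha3, a receptor tyrosine kinase of axon guidance, the peak at chr16:63856592-63858077 had 22.1 (21.8 in pool I, 21.2 in pool J), with a CpG ratio of 0.596, just under the limit, and lay 5336 bases from the nearest coding start.

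The widest far intronic peaks formed neighbouring blocks or lay over internal starts. Lncppara, a long noncoding RNA gene, held both of the widest, 8572 bases at chr15:85669121-85677692 (enrichment 16.8) and, 178 bases on, 4794 bases at chr15:85677871-85682664 (16.7). The first was 8600 bases wide in pool I and 5856 in pool J, and the second 5549 in pool I and 4769 in pool J. A peak of 4367 bases in A830082K12Rik lay 1347 bases from a start-window peak and was 4910 bases wide in pool I and 2314 in pool J. Cyth1, a gene for an exchange factor of ARF GTPases, held a peak of 4248 bases (18.1-fold) with a curated RefSeq start of Cyth1 inside it. Dlg1 held 1 of 4015 bases (11.3-fold, with 13.1 in pool I and 10.5 in pool J), and a curated RefSeq start of Dlg1 also lay inside it, although the 300 bases printed above have a CpG ratio of 0.461.

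RefSeq was not used to choose the peaks, but the choice had removed all peaks within 1000 bases of a GENCODE start. A RefSeq transcript start lay within 1000 bases of 186 far intronic peaks (8.77%), against 66.1% of all replicated peaks. The share was 91.8% for start-window peaks and 10.5% (616) for the 5860 other peaks outside start windows, close to that of the far intronic peaks. Within 1000 bases of a RefSeq start lay 1.22% of the intron sequence where such a peak could lie, counted base by base and not by whole peaks. For 37 of the 186 a curated transcript began there, and for 149 only predicted ones did. The start belonged to the host gene in 100 and to another gene in 86, and had the host's strand in 117 and the opposite strand in 69. Median enrichment was 4.57 with such a start and 3.54 without. The share was 5.18% of peaks up to 3-fold, 7.17% between 3- and 5-fold, 12.03% between 5- and 10-fold, 24.2% between 10- and 15-fold and 33.3% above 15-fold. Among the named peaks, 1 in Rbfox1 lay 25 bases from a curated Rbfox1 start and 1 in Grik4 had a predicted Grik4 start inside it.

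First introns held more of the peaks than their share of bases. In 1150 (54.2%, interval 52.1 to 56.3) the midpoint was in the first intron of at least 1 transcript, and first introns made up 39.0% of the eligible intron sequence. Of the host's transcripts with an intron at the midpoint, the one with most introns placed 807 in intron 1, 450 in intron 2 and 865 in a later one. That transcript can be a short one: the highest Nfib peak, 192 kb into the gene, was in intron 1 of 1. Past 10000 bases from coding starts the share was 49.0%. Another peak of any class lay within 1000 bases of 377 far intronic peaks, against 28.5% of all replicated peaks with such a neighbour, and for 78 the neighbour was a start-window peak.

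A protein-coding gene hosted 1743 of the peaks (82.1%), and for the other 379 every host was noncoding, mostly long intergenic noncoding RNA genes (222), processed transcripts (79) and antisense genes (58). Peaks with noncoding hosts alone had a median enrichment of 4.05 and a CpG-rich share of 15.04%, against 3.54 and 9.58% for peaks in coding genes. The 1743 peaks had 1133 coding hosts, where the shortest coding gene counted as host if several overlapped. Of these, 806 held 1 peak, 195 held 2 and 132 held 3 or more. At 1028 hosts (90.7%, interval 88.9 to 92.3) a peak overlapped a window of 1000 bases either side of a start of the gene, which is called a marked promoter here. Among the 14549 coding genes with eligible intron sequence 75.6% had a marked promoter. Coding genes that held a far intronic peak were 1165, or 8.01% of those 14549.

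Hosts were long, so densities are given per megabase of eligible intron sequence. The median length was 126532 bases for hosts and 32022 for all 14549 genes. Genes with a marked promoter held 2.42 far intronic peaks per megabase and genes without held 1.43. Here a peak in overlapping coding genes counted for each of them, which gave 1675 pairs of peak and gene with a marked promoter and 132 without. With 10 to 50 kb of eligible sequence the densities were 2.77 and 1.46, with 100 to 200 kb 2.77 and 0.838, and above 500 kb 1.67 and 1.62, in the same order. The last pair rests on 182 genes with a marked promoter and 9 without.

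The 105 coding hosts without a marked promoter held 122 peaks, which had a median enrichment of 4.43 and a CpG-rich share of 19.7%, against 3.51 and 8.82% for peaks in hosts with one. Pool I had 81.1% of the 122 peaks and pool J 68.9%, against 73.2% and 50.8% for the rest in coding hosts. The highest lay in Gm44511 (19.7, with a start predicted by RefSeq inside it), Gm17655 (19.6) and Gm37388 (17.2). In Cntn3, a gene for an adhesion protein of the contactin family, a peak of 3425 bases at chr6:102561524-102564948 had 17.2 (17.7 in pool I, 16.7 in pool J) and lay 8153 bases from the nearest coding start, with a start of Cntn3 predicted by RefSeq inside it. The windows at the annotated Cntn3 starts had no peak. In Ldb3, a gene of the muscle Z-disc, a CpG-rich peak at chr14:34548358-34550080 had 14.9 (15.5 in pool I, 13.3 in pool J), 39.5 kb into a gene with no peak at its starts.

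A few of these peaks resembled annotated transcripts. In 8 the 300 bases at the summit aligned over at least 150 bases, at an identity of at least 90%, to an annotated transcript, although the peaks hold no exon. Cd80, a costimulatory gene of antigen-presenting cells whose own promoter had no peak, held 2 of them. One (10.4, with 10.2 in pool I and 10.2 in pool J) aligned to Kmt5a, a histone methyltransferase gene, at 97.3% over 150 bases, and the other (4.83) to the creatine kinase gene Ckb at 95.5% over 154 bases. A peak in Gm281 (12.4, with 12.3 in pool I and 12.03 in pool J) aligned to Zfand5 at 91.6% over 274 bases. One in Hsf5 (11.9, with 12.7 in pool I and 11.3 in pool J) aligned to Pitpna, a phosphatidylinositol transfer protein gene, at 94.0% over 151 bases. The other 4 lay in Gm26624, Gm45341, Cdh11 and Firre, with enrichment of 3.74 to 6.91, and the last aligned to a transcript of Firre itself, a long noncoding RNA gene of the X chromosome. Whether reads from the similar sequence were placed at these positions was not tested, and the aligner's handling of such reads is not given in the sources used here.

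The 5 genes that held most far intronic peaks were a noncoding RNA gene, a phosphodiesterase, an adhesion protein and a pair of transcription factors. Firre, the noncoding RNA gene on the X chromosome noted above, held 14 within 79.6 kb, with enrichment from 3.13 to 10.9; 13 were found in pool I and 12 in pool J. They were 299 to 502 bases wide, spread from 12.1 to 68.6 kb into the gene over introns 3 to 19, and 1 of the 14 was CpG-rich. Its highest had 10.4 in pool I and 11.1 in pool J. Pde4d, a cyclic AMP phosphodiesterase gene with many starts, held 13 over 1504 kb, with enrichment from 2.38 to 6.92; 13 were found in pool I and 11 in pool J. Tenm3, a teneurin gene of synaptic adhesion, held 12 (2.16 to 10.2), of which pool I had 9 and pool J 9, and none was CpG-rich. Nfib, a nuclear factor I transcription factor, held 11 (2.40 to 17.4). Its highest, at chr4:82513157-82514138 (17.4, with 17.1 in pool I and 16.9 in pool J), and a neighbour of 11.8 lay 192 and 193 kb into the gene and were CpG-rich, and another of 11.8 and 2805 bases lay 168 kb in. Tcf4, a basic helix-loop-helix factor, held 11 (2.32 to 6.87), of which pool I had 6 and pool J 5. Next came 10 each in Maml3, a coactivator gene of Notch signalling (2.18 to 11.9, 9 in pool I and 9 in pool J, 4 CpG-rich), and in Gm20388, a gene model of 4435 kb.

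**Figure D4:**
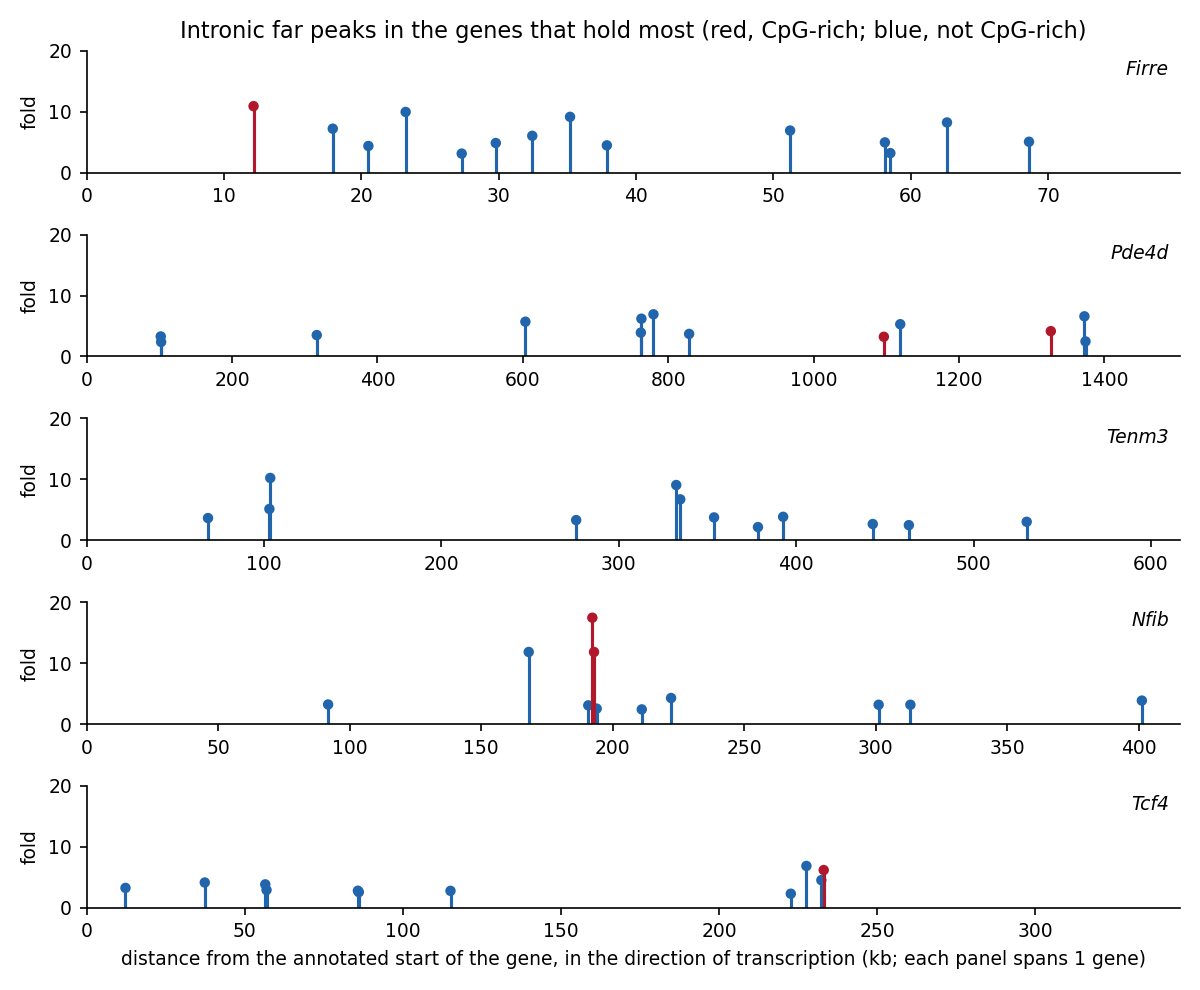
Position of each far intronic peak in the 5 genes that held most, from the annotated start of the gene in the direction of transcription (kb, a scale for each gene), against the authors' enrichment (fold) in the replicated list, with CpG-rich peaks in red. The highest in Nfib are the pair 192 and 193 kb into the gene with 17.4 and 11.8; in Firre all 14 lie between 3.13 and 10.9.

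Among coding hosts of at least 3 peaks, those with little eligible sequence were densest, Ywhaz with 4 peaks at 285 per megabase (4 in pool I, 4 in pool J) and Sema7a with 4 at 273 (2 and 2). Nfix, a relative of Nfib, held 8 peaks in 62681 bases of eligible sequence, or 128 per megabase (6 in pool I, 4 in pool J), and Camk2a, the calcium/calmodulin-dependent kinase of excitatory synapses, held 6 at 165 per megabase (5 in pool I, 2 in pool J). Bcl11b, a zinc finger factor of deep cortical layers, held 7 at 87.0 per megabase (6 in pool I, 4 in pool J). Bcor, a Polycomb-linked corepressor gene on the X chromosome, held 7 at 77.0 per megabase. All 7 of its peaks were found in pool I and all 7 in pool J, 6 were CpG-rich, and enrichment ran from 4.31 to 14.0. These were chosen after their values were seen. The X chromosome as a whole held 43 far intronic peaks, 1.05 per megabase of eligible sequence, against 1.58 (chromosome 14) to 3.40 (chromosome 16) on the autosomes, with a median enrichment of 5.38, against 3.41 to 3.95 on single autosomes. Firre and Bcor held 21 of the 43; the median was 5.38 without Firre (29 peaks), 5.13 without Bcor (36) and 4.98 without both (22).

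Among 16 lists of host genes, transcription factors of the cortex held the most per megabase. Of the 33 with eligible sequence, 22 held a peak, 81 in all, at 8.88 per megabase. Over all coding genes 8.01% held a peak, at 2.30 per megabase, a peak counting for each coding gene that held it. The listed genes had more eligible sequence, a median of 178119 bases against 17912 over all coding genes. Among genes with a marked promoter and 100 to 200 kb of eligible sequence, 26.3% held a peak. Nfib held 11 peaks, Tcf4 11, Nfix 8 and Bcl11b 7, so much of the density came from few genes. Median enrichment in that list was 3.54, the same as over all coding hosts (3.54), and 9 of the 81 were CpG-rich. Members with peaks included Nfia, Nfib, Nfix, Tcf4, Bcl11a, Bcl11b, Sox5, Foxp1 and Mef2c. Chromatin regulators held 18 in 10 of 31 genes, 5.58 per megabase, the highest in Arid1b, a BAF complex subunit (14.2, with 13.4 in pool I and 15.9 in pool J), where the nearest coding start was 193 kb away. Neuronal RNA-binding genes held 22 in 6 of 17, 4.76 per megabase, but 5 of the 22 were found in both pools. Their highest was that of Rbfox1 (12.8, with 12.9 in pool I and 12.2 in pool J), and 9 lay in Khdrbs3, none above 4.46.

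Lists of cytoskeletal, signalling and synaptic genes ran from 3.69 down to 0.820 per megabase, on both sides of the level of all coding genes. Signalling enzymes held 50 in 19 of 34 genes (3.61 per megabase), the highest in Prkce, a protein kinase C gene (7.10), and cytoskeletal genes 28 in 11 of 28 (3.69), the highest in Nav3 (10.4). The list of synaptic scaffold and vesicle genes, which took in Auts2 (4 peaks), Nrg1 (3) and Nrg3 as well, held 33 in 14 of 31 (2.61 per megabase). Its highest lay in Dlg2, a relative of Dlg1 (17.2, with 18.2 in pool I and 16.3 in pool J), 171 kb from a coding start. Synaptic adhesion genes held 52 in 23 of 38 but at 1.57 per megabase, with the highest in Ptprf, a receptor phosphatase gene (10.4). Ion channels held 13 in 11 of 29 (1.29 per megabase), none above the 5.10 of the potassium channel gene Kcnd2. Glutamate and GABA receptors held 9 in 6 of 30 (0.820 per megabase), among them Grik4 with 15.8 (14.2 in pool I, 16.4 in pool J).

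Cell type lists were small, and their densities, set against 2.30 per megabase over all coding genes, rest on few peaks. Markers of excitatory neurons held 9 in 4 of 13 genes (4.74 per megabase), with the highest in Cux2 (4.87). Each of the 4 genes is also in a list above. Of the 9, 6 lay in the 36349 eligible bases of Camk2a, and 3 of the 9 were found in both pools. Markers of inhibitory neurons held 5 in 3 of 15 (1.58 per megabase), with 1 of 12.2 in Grip1, a scaffold of glutamate receptors (14.1 in pool I, 10.1 in pool J). Astrocyte genes held 6 in 5 of 15 (2.36 per megabase, highest 7.67, in Nhsl1). Oligodendrocyte and precursor genes held 10 in 4 of 19 (3.86 per megabase, highest 3.88, the Pde4b peak printed above), and Pde4b, Qk and Sox6 of these 4 are also in the signalling, RNA-binding and transcription factor lists. Microglial genes held 2 in 2 of 13 (1.65 per megabase, highest 4.29, in Cx3cr1, the fractalkine receptor gene). The Cx3cr1 peak lay 67.7 kb into a GENCODE gene model of 168 kb, 1442 bases from the nearest annotated start of any kind. The nearest RefSeq start was that of another gene, Csrnp1, 16974 bases away. Endothelial and mural genes held 10 in 3 of 16 (5.18 per megabase). Of those 10, 6 lay in Flt1, a VEGF receptor gene, 1 was found in both pools, and none exceeded the 4.37 in Erg. Genes of other tissues held 1 in 1 of 9 (5.43 per megabase, from that single peak), in the muscle gene Ttn (3.71, found in pool I and not in pool J). As a check of the tissue, a promoter peak was present at 18 of 18 excitatory, 17 of 19 inhibitory, 17 of 18 astrocyte, 19 of 22 oligodendrocyte and 16 of 18 endothelial and mural genes, against 65.2% of all coding genes. It was present at 11 of 18 microglial genes, near that share, and at 3 of 17 genes of other tissues.

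**Figure D5:**
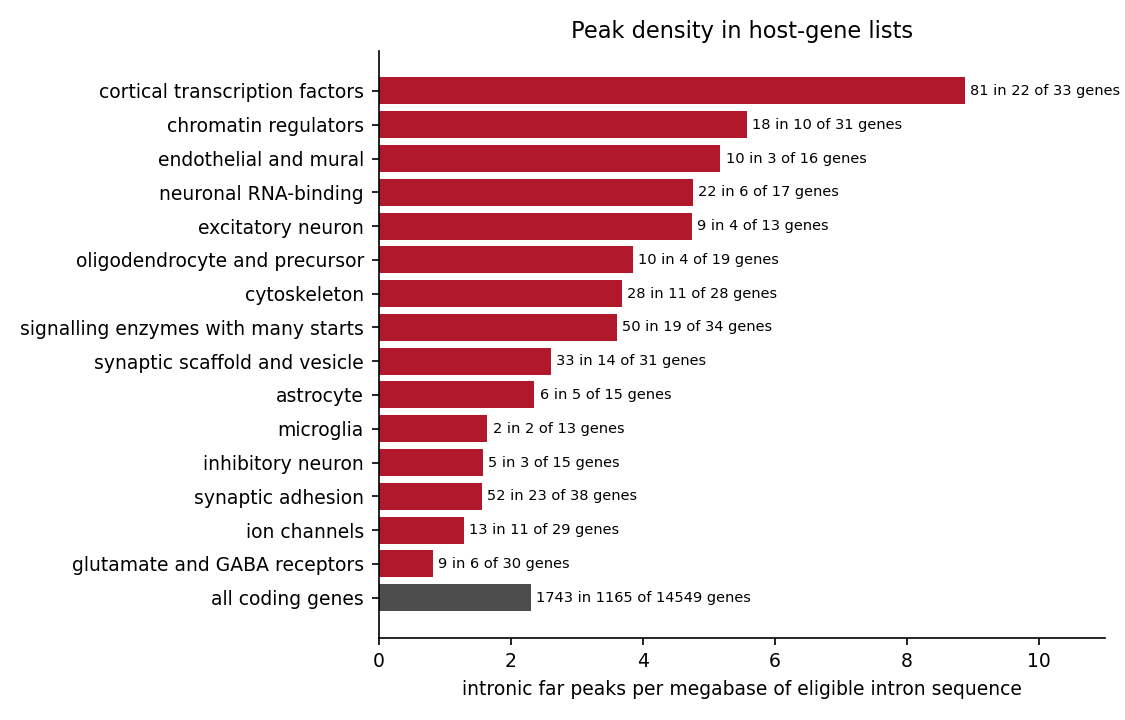
Far intronic peaks per megabase of eligible intron sequence in 15 lists of host genes with at least 2 genes that held one (red) and in all coding genes (grey); the text at each bar gives the peaks, the genes that held one and the genes with eligible sequence. Cortical transcription factors reach 8.88 and glutamate and GABA receptors 0.820, against 2.30 over all coding genes. The 2.30 counts a peak for each coding gene that held it, and the 1743 written at that bar counts each peak once.

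Short sequence words of 12 transcription factors were searched on both strands of the 300 bases at each summit, with matches taken as letters and not as binding. The CTCF word CNAGNNGGC was in 15.6% of the far intronic peaks, against 24.7% of all replicated peaks and 8.97% of the intron tiles. Words that hold a CpG were more common under the peaks than in the tiles. The tiles had lower GC content and CpG ratio than the peaks, as given above, and the shares were not corrected for this. GGGCGGGG, of SP factors, was in 3.68%, against 10.2% and 0.709%; CCGGAAG, of ETS factors, in 3.06%, against 6.33% and 0.743%; and GCGCATGCG, of NRF1, in 0.566%, against 0.523% and 0.0379%, each against all peaks and then the tiles. AANATGGCG, of YY1, was in 0.801%, against 1.76% and 0.367%, and the cyclic AMP response element TGACGTCA in 13 peaks (0.613%), against 0.629% and 0.155%. The EGR word GCGTGGGCG, which can share letters with that of SP, was in 8 peaks (0.377%), against 0.825% of all peaks and 0.0119% of tiles. Of the 8, 5 were CpG-rich. The Ldb3 summit held the CTCF, AP-1, ETS and SP words.

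Of the words without CpG, those of AP-1, basic helix-loop-helix factors and MEF2 had shares close to those in the tiles. The AP-1 word TGANTCA was in 8.44% of the far intronic peaks, against 4.82% of all peaks and 9.004% of tiles. CAGATG, of basic helix-loop-helix factors of neurons, was in 21.3%, against 14.8% and 21.7%, and CTATTTNTA, of MEF2, in 2.31%, against 0.920% and 2.24%. GTTGCCATG, of RFX, was in 0.707%, against 0.444% and 0.308%. TTCAGCACC, of REST, was in 4 (0.189%), against 0.507% and 0.268%. Within the far intronic peaks, the SP word was in 12.5% of CpG-rich summits and 2.63% of the others, and the neuronal CAGATG word in 14.7% and 22.0%.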

How the data were processed

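H3K4me3 ChIP-seq of 2 pools of left cerebral cortex (4 libraries) was available as 4 deposited lists of peaks on mm10, per the labels and the deposited text files: pool I alone, pool J alone, the pooled reads, and the replicated peaks of both. Neither aligner nor peak caller is named in the sources used here. Each list gave, as deposited, positions and summits in bases, a display score (not used), an enrichment ratio taken as fold over a control, and −log10 q values, which served as a filter. The enrichment is the authors' value for a peak and served to describe, rank or filter peaks; values of different lists stand side by side, and their scales may differ.

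Peaks were placed by GENCODE M21 in the order start window, exon, intron, intergenic, with Python 3.11.15, NumPy 2.4.6 and pandas 2.3.3. Coding starts were those of transcripts of the protein-coding type. Eligible intron sequence was every base where such a peak could lie. Sequences were read from the RefSeq copy of the same build, and summits were aligned to GENCODE transcripts and the mitochondrial genome with blastn 2.17.0. The placement and overlap steps were tested on simulated peaks. Shares have 95% Wilson intervals from SciPy 1.17.1. No test was made between groups: with 1 list per pool, and peaks not being replicates, comparisons are descriptions.

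The peaks and the gene lists were chosen with earlier results of these data known. Named peaks were the 10 highest, the 5 widest, the 5 highest of each CpG class, the 5 highest in hosts without a marked promoter, those of the 5 genes holding most (the shortest coding gene as host, or a noncoding gene where no coding one overlapped), the highest in each list, 3 on each side of the 5000-base limit and the 3 highest found in each pool alone. The 8 that resembled transcripts were added.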

Additional observations from a re-analysis of the deposited data

How the results depend on the processing

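No paired analysis was possible because each pool had 1 peak list and the replicate numbers within a pool are technical. Of 54 recomputed values, 31 stayed within the spread between the pool lists (1 SD; for a count, 1.5-fold; for a share found in a pool, its interval) and 23 moved. A limit on −log10 q of at least 10 gave 641 peaks, median width 741 bases, median enrichment 6.30, CpG-rich 24.0%, first intron 51.2%, 84.9% of hosts with a marked promoter (promoters then also being called from the kept peaks), and 99.8% found in pool I and 97.3% in pool J. With either pool list alone the rule gave 1234 to 1930 peaks, median widths of 548 to 568 bases, median enrichment of 4.18 to 4.54, CpG-rich shares of 11.1% to 13.9%, first-intron shares of 54.0% to 54.8% and marked hosts of 88.9% to 90.4%; the lowest count and the highest CpG-rich share were those of pool J. The pooled-reads list gave a median width of 446 bases and a first-intron share of 55.6%. That share was 49.0% with a limit of 10000 bases, 53.2% with start windows of 2500 bases and 53.0% with protein-coding genes only. The CpG-rich share was 4.29% over 1000 bases and 5.42% with limits of 55% GC and a ratio of 0.65. Measuring the 5000 bases from any transcript of a protein-coding gene, an alternative chosen after seeing the data, left 1982 peaks and kept each of the 6 values within the spread. Read depth is not known, so a peak missing from a pool list is not shown to be absent from that pool.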
